A study of Mus musculus with 20 samples.

Results

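The catecholamine genes described here are Th, Ddc, Slc18a2, Dbh, Pnmt, Slc6a2, Maoa and Maob, 8 of the 48795 genes in the table. Ddc and Slc18a2 were chosen by the difference in their normalised counts between Dp3Tyb and wildtype hearts, in which both were lower, and the other 6 complete the synthesis, uptake and breakdown of catecholamines. The Dp3Tyb comparison therefore chose the genes, and for these 8 it is given below as a description with no test, whereas the Ts1Rhr comparison was not used for the choice and was tested.

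RNA sequencing (RNAseq) was carried out on whole hearts of mouse embryos at E13.5, shortly before septation is completed, in 20 libraries that formed 4 groups of 5. Dp3Tyb, Dp(16Mir802-Zbtb21)3TybEmcf, and Ts1Rhr, Dp(16Cbr1-Fam3b)1Rhr, model Down syndrome in the mouse through tandem duplications on chromosome 16, of which the Ts1Rhr segment is the shorter and lies within that of Dp3Tyb. Each strain was compared with its own wildtype (WT) littermates, which carry neither duplication, and all embryos were on the C57BL/6J background. A strain with its littermates is called a cohort here. The labels name heart defects for all 5 Dp3Tyb hearts, heart defects for 2 Ts1Rhr hearts and none for the other 3, and the 5 Ts1Rhr hearts were kept as 1 group by genotype. The labels of those 2 hearts conflict with the study, which describes the strain as free of such defects. The 8 genes lie outside both duplications, in GRCm38.p6 at chr7:142892779-142899995 (Th), chr11:11814101-11898144 (Ddc), chr19:59260878-59296012 (Slc18a2), chr2:27165507-27183204 (Dbh), chr11:98386623-98388180 (Pnmt), chr8:92960470-93001667 (Slc6a2), chrX:16619698-16687812 (Maoa) and chrX:16709281-16817366 (Maob). Maoa and Maob are neighbours on the X chromosome.

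Values are normalised read counts, that is, reads of a gene divided by 1 factor per library, and libraries held between 6600839 and 19634514 reads. Reads of mitochondrially encoded genes made up between 4.85% and 19.5% of a library and exceeded 10% in 7 of the 20, which were 1 WT and 1 Dp3Tyb heart of the Dp3Tyb cohort and 3 WT and 2 Ts1Rhr hearts of the Ts1Rhr cohort. The cardiomyocyte transcripts Myh7 and Myh6 reached at least 88996 and 51405 in every library. Xist, made from the inactive X chromosome of female cells, was at 9403 or more in 3 of the 5 hearts of each group and at 14.9 or less in the others, so the X-linked genes Maoa and Maob were compared between groups with the same number of such hearts.

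Catecholamines are made from tyrosine. Tyrosine hydroxylase (Th) forms L-DOPA in the rate-limiting step, aromatic L-amino acid decarboxylase (Ddc) converts L-DOPA to dopamine and also makes serotonin, and the vesicular monoamine transporter VMAT2 (Slc18a2) loads monoamines into vesicles, where dopamine beta-hydroxylase (Dbh) forms noradrenaline. Phenylethanolamine N-methyltransferase (Pnmt) turns noradrenaline into adrenaline, the noradrenaline transporter (Slc6a2) returns it to the nerve ending, and the monoamine oxidases Maoa and Maob degrade it. In the embryo, noradrenaline is needed for heart function, and some cells of the heart itself express synthesis enzymes. Autonomic neurons of neural crest origin settle at the base of the heart during midgestation. Ddc is also imprinted in the developing heart, where a transcript from an alternative first exon is expressed from the paternal copy.

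The promoters of the genes on which the results turn are shown because Ddc and Slc18a2 were the members with lower values, while Th catalyses the step before Ddc. RefSeq promoters were used for 5 of the 8 genes (Th, Ddc, Slc18a2, Dbh and Maoa, with 2 starts for Ddc). Those of Ddc, Slc18a2 and Th are printed from 250 bases before the start to 10 bases from the start onwards. The assembly is GRCm38.p6, that of the build named for the authors' processing. Capitals mark exact matches on either strand to 4 motifs that were searched: the cyclic AMP response element TGACGTCA, the TATA box TATAAA, the E-box CAGCTG and the homeodomain core TAATTA. The upstream Ddc start is at chr11:11898135-11898394 and the downstream one at chr11:11890399-11890658, both on the minus strand, Slc18a2 is at chr19:59260628-59260887 on the plus strand, and Th is at chr7:142899986-142900245 on the minus strand.
Ddc, upstream start: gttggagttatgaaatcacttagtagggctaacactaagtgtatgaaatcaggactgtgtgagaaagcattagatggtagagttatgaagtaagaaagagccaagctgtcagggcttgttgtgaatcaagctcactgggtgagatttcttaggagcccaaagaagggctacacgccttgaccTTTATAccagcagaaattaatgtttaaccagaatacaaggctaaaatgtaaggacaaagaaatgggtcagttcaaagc
Ddc, downstream start: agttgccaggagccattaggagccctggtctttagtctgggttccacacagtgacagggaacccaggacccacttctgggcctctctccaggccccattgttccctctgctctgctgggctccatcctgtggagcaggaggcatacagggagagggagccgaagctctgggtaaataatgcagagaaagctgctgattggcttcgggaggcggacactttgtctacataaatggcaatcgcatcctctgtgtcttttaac
Slc18a2: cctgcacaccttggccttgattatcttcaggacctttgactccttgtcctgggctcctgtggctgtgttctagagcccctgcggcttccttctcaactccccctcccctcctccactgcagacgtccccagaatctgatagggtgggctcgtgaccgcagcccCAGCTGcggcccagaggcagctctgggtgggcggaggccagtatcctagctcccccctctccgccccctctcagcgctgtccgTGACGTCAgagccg
Th: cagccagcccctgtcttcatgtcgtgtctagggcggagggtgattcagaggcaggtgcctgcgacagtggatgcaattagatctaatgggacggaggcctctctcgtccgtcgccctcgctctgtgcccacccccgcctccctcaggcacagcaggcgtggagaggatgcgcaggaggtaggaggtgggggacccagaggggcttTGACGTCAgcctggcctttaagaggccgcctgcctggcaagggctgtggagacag

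The cyclic AMP response element, present in 1.67% of 32851 RefSeq mouse promoters of this length, was matched in Th, with its first base 45 bases before the start, and in Slc18a2, with its first base 4 bases before the start and its last bases behind it. Slc18a2 also held an E-box 87 bases before the start (13.53% of promoters). The upstream Ddc promoter held a TATA box read on the opposite strand, 68 bases before the start (12.7% of promoters), and the downstream one matched none of the 4 motifs. Dbh and Maoa matched none either, and the homeodomain core, found in 4.94% of promoters, was matched in none of these genes. Thus Ddc and Slc18a2 shared no searched motif in these windows. The deposited values are 1 per gene, so reads from the 2 Ddc starts were not separated.

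To see where the pathway stands in the E13.5 heart, levels were first compared between genes in the 10 WT hearts, as normalised reads per kilobase of the canonical transcript. Ddc was the highest, at 233 ± 45.4 (SD, n = 10), followed by Maoa at 102 ± 10.1, Maob at 56.7 ± 8.68 and Slc18a2 at 44.7 ± 5.77. The remaining genes were far lower, with Dbh at 4.06 ± 2.51, Pnmt at 3.28 ± 3.002, Th at 1.53 ± 1.02 and Slc6a2 at 0.335 ± 0.287. The enzyme for the second step of synthesis was thus abundant in whole-heart RNA while Th and Dbh, the enzymes for the steps before and after it, were scarce.

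Among neighbours in this order, Ddc was above Maoa and Maoa above Maob in 10 of 10 hearts, with ranges that did not overlap. Slc18a2 was 10.996 times Dbh, again higher in 10 of 10 hearts without overlap. Maob exceeded Slc18a2 in 10 of 10 hearts although the ranges overlapped, and this order depended on the length used, since per kilobase of coding sequence Slc18a2 stood at 119 ± 15.3 and Maob at 89.3 ± 13.7. The 4 low genes could not be ordered securely: Dbh was above Pnmt in 7 of 10 hearts, Pnmt above Th in 7 of 10 and Th above Slc6a2 in 9 of 10, all with overlapping ranges. Ddc was 152 times Th per kilobase of transcript and 115 times per kilobase of coding sequence, the latter length having been added after the data were seen.

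**Figure D1:**
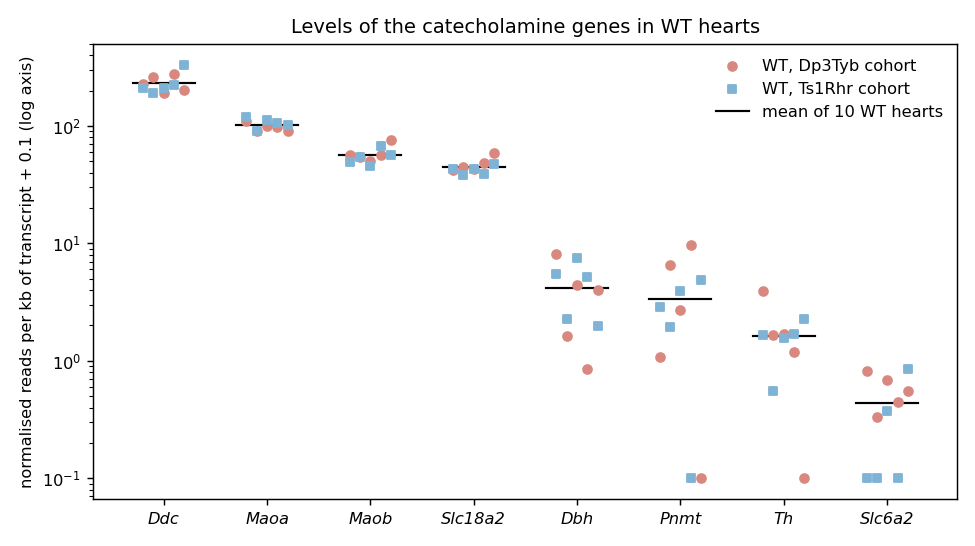
Normalised reads per kilobase of canonical transcript, plus 0.1, on a log axis for each of the 10 WT hearts (circles, Dp3Tyb cohort; squares, Ts1Rhr cohort; lines, means of 10). Ddc, Maoa, Maob and Slc18a2 sit above 38 in every WT heart, whereas Dbh, Pnmt, Th and Slc6a2 stay below 10.

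The 4 genes with low levels varied most between hearts. The coefficient of variation over the 10 WT hearts was 9.94% for Maoa, 12.9% for Slc18a2, 15.3% for Maob and 19.5% for Ddc, against 61.7% for Dbh, 66.8% for Th, 85.5% for Slc6a2 and 91.6% for Pnmt. The low genes rested on few reads, at most 28 in any library for Dbh, 23 for Th, 16 for Slc6a2 and 15 for Pnmt, and reads were present in 20, 19, 16 and 17 of the 20 libraries, respectively. Ddc, by contrast, had between 241 and 1452 reads and Slc18a2 between 82 and 266. The WT groups of the 2 cohorts overlapped for all 8 genes, with Ddc means of 814 for the Dp3Tyb cohort and 825 for the other.

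In the Dp3Tyb comparison, Ddc had normalised counts of 801, 920.5, 667, 973 and 708 in the 5 WT hearts and of 578, 613, 593, 483 and 624 in the 5 Dp3Tyb hearts. Every Dp3Tyb heart lay below every WT heart. The mean was 814 ± 132 (SD, n = 5) in WT and 578 ± 56.1 in Dp3Tyb hearts, a log2 fold change of -0.48 ± 0.12 (SE), or 0.715-fold. In RNA from whole hearts, fewer cells that express a gene and less RNA in each of them cannot be told apart.

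Slc18a2 had normalised counts of 174, 185, 179, 199 and 241 in WT and of 135, 139, 162, 126 and 144 in Dp3Tyb hearts. These groups did not overlap either, with means of 195 ± 27.0 and 141 ± 13.3 and a log2 fold change of -0.46 ± 0.11, or 0.726-fold. Ddc and Slc18a2 were thus 2 of the 8 genes with lower, non-overlapping values in Dp3Tyb hearts. Of the 14763 genes that passed the filter on low values (a normalised count of 10 or more in 5 or more libraries of the cohort), 0.474% did the same, and nothing is read from this count because these values chose the genes.

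The other synthesis enzymes overlapped between Dp3Tyb and WT hearts. Th had values of 18.5, 7.61, 7.73, 5.23 and 0 in WT and 12.8, 8.61, 19.5, 16.6 and 9.79 in Dp3Tyb hearts. The log2 fold change of 1.16 ± 0.74 for Th leaned on the WT heart with 0 reads, the shallowest library, in which 3 reads would have given 8.81, and it was 0.51 without that heart. Dbh had values of 24.3, 4.57, 13.1, 2.24 and 11.7 in WT and 5.11, 13.3, 15.3, 20.3 and 18.2 in Dp3Tyb hearts (log2 fold change 0.56 ± 0.55). Each group of Dbh thus spanned a range of several fold on its own.

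Pnmt ranged from 0 to 11.2 in WT and from 0 to 6.78 in Dp3Tyb hearts (log2 fold change 0.01 ± 0.85). Slc6a2, the transporter for reuptake, ranged from 1.52 to 4.64 in WT and from 0 to 11.6 in Dp3Tyb hearts (-0.01 ± 0.64). Among the breakdown enzymes, Maoa ranged from 376 to 464 in WT and from 389.7 to 474 in Dp3Tyb hearts (0.12 ± 0.08), and Maob from 123 to 185 and from 134 to 165 (0.01 ± 0.12). Without the 2 libraries of this cohort with over 10% mitochondrial reads, Ddc and Slc18a2 had log2 fold changes of -0.56 and -0.39. The median log2 fold change of the 8 genes was 0.01, and that of all genes tested was -0.0027.

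**Figure D2:**
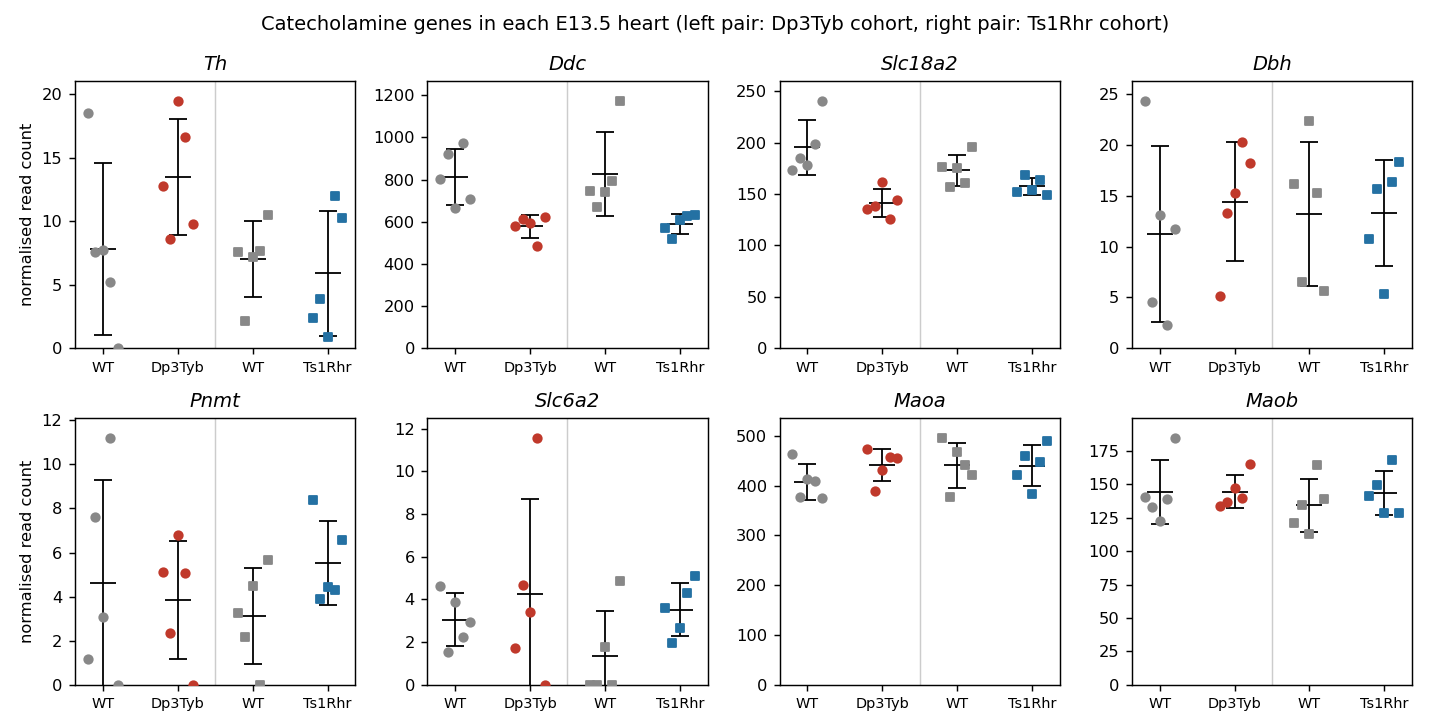
Normalised read count of each gene in each heart, with mean and SD (n = 5 per group; bars reaching below 0 are cut at the axis); the left pair in each panel is the Dp3Tyb cohort and the right pair the Ts1Rhr cohort. Ddc values of both mutant strains lie below those of their WT littermates without overlap, and those of Slc18a2 do so in the Dp3Tyb cohort and not in the Ts1Rhr cohort.

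The Ts1Rhr comparison asked whether the shorter duplication goes with the same values. Ddc had normalised counts of 747, 669, 741, 794 and 1174 in the WT littermates and of 570.1, 516, 608, 625 and 631 in Ts1Rhr hearts. The 5 Ts1Rhr hearts again lay below all 5 WT hearts. The means were 825 ± 200.1 and 590.3 ± 47.8, a log2 fold change of -0.46 ± 0.13, or 0.728-fold.

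Non-overlap towards lower values was seen for 1 of the 8 genes, Ddc, and for 0.498% of the 14867 genes tested in this cohort, and 0.128% of them were also lower by at least as much as Ddc. The change of Ddc did not pass the adjustment over all genes tested. In limma the unadjusted p was 0.00448 and the adjusted p 0.795, while the adjusted p was 0.28 in DESeq2 and 0.832 in edgeR's quasi-likelihood test, both run on recovered whole reads, and over all alternatives it lay between 0.28 and 0.999. The exact permutation test of Ddc alone, added after the data were seen, gave p = 0.00794 (unadjusted), the smallest that the splits of 10 hearts allow and shared by every gene whose groups do not overlap. The highest WT value, 1174 in replicate 5, raised the size of the difference, which was -0.32 on the log2 scale without that heart and still without overlap. Without the 5 libraries of the cohort with over 10% mitochondrial reads it was -0.58. The only WT hearts then left were replicates 3 and 5, at 741 and 1174, so that value leans on the same high heart.

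Slc18a2 had normalised counts of 176, 157, 176, 161 and 196 in WT and of 152, 169, 154, 164 and 149 in Ts1Rhr hearts. The groups overlapped, although all 5 Ts1Rhr values were below the WT mean of 173 ± 15.2. The log2 fold change was -0.13 ± 0.09 (limma adjusted p = 0.795, exact permutation p = 0.0794), and -0.25 without the libraries with over 10% mitochondrial reads. That cut again left only WT replicates 3 and 5, at 176 and 196. The WT mean of this cohort was itself 0.886 times that of the Dp3Tyb cohort. Whether Slc18a2 changed by a different amount in the 2 strains was not tested, since the Dp3Tyb value had chosen the gene.

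None of the 5 genes that passed the filter in the Ts1Rhr cohort (Ddc, Slc18a2, Dbh, Maoa and Maob) was called at an adjusted p below 0.05 in limma, DESeq2 or edgeR, where limma called 4 of 14867 genes (0.0269%), none of them lower (0.0%). At an unadjusted p below 0.05 in limma there was 1, Ddc, against 5.52% of all genes tested. Dbh had values of 16.2, 6.51, 22.4, 15.3 and 5.66 in WT and 10.8, 15.6, 5.33, 16.3 and 18.3 in Ts1Rhr hearts, and its log2 fold change of 0.07 ± 0.42 (limma adjusted p = 0.968) changed sign when single hearts were left out. Maoa ranged from 378 to 497 in WT and from 384 to 490.4 in Ts1Rhr hearts (-0.00019 ± 0.09, limma adjusted p = 0.999). Maob ranged from 113 to 165 and from 129 to 168 (0.10 ± 0.12, limma adjusted p = 0.821).

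The 3 genes under the filter were tested by exact permutation alone. Th had values of 7.56, 2.17, 7.17, 7.66 and 10.5 in WT and 2.4, 3.9, 0.888, 12.03 and 10.2 in Ts1Rhr hearts, with a log2 fold change of -0.45 ± 0.61 (exact permutation p = 0.437), which lay between -0.77 and -0.07 with single hearts left out and was nearest to 0 without Ts1Rhr replicate 3. Pnmt ranged from 0 to 5.66 in WT and from 3.9 to 8.38 in Ts1Rhr hearts (0.87 ± 0.51, exact p = 0.103), and its log2 fold change was -0.0046 without the libraries with over 10% mitochondrial reads. It was 0.42 (exact permutation p = 0.206) without WT replicate 4, which had 0 reads, 1.11 (exact permutation p = 0.0317) without WT replicate 5 and 1.56 with a pseudocount of 0.1. Slc6a2 was at 0 reads in 3 of 5 WT hearts, in each of which 3 reads would have given between 3.24 and 5.74, and ranged from 1.95 to 5.12 in Ts1Rhr hearts (1.32 ± 0.55, exact p = 0.0635). The log2 fold change of Slc6a2 was 0.28 without the libraries with over 10% mitochondrial reads and 3.13 with a pseudocount of 0.1 in place of 1. For Slc6a2, 1 heart decided this call, since without WT replicate 5 the value was 1.76 (exact permutation p = 0.00794). The median log2 fold change of the 8 genes was 0.03, and that of all genes tested -0.0016.

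**Figure D3:**
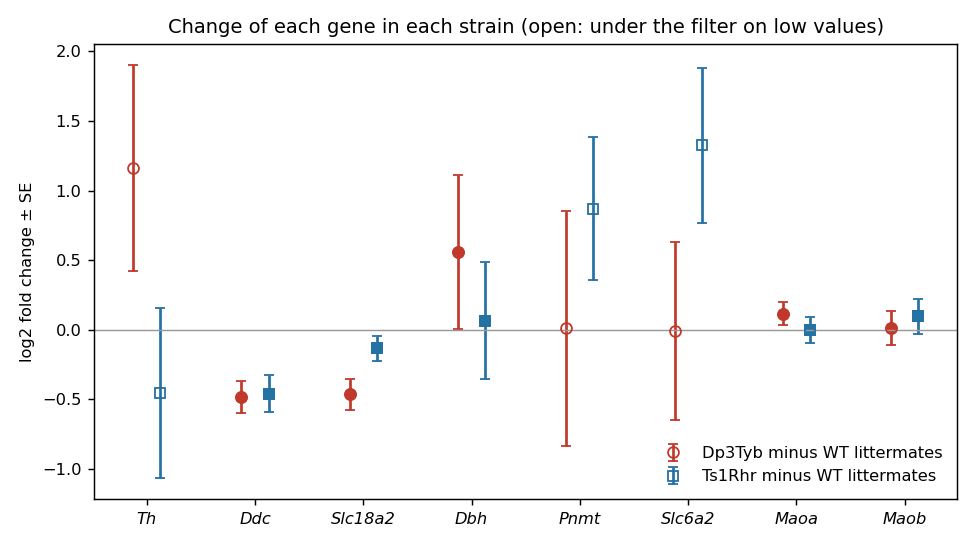
Log2 fold change with its SE for each gene, mutant minus WT littermates, in Dp3Tyb (circles) and Ts1Rhr (squares), with open symbols for genes under the filter on low values. Ddc is near -0.5 in both strains, Slc18a2 is -0.46 in Dp3Tyb and -0.13 in Ts1Rhr, and the genes with few reads have the widest errors.

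Beyond the 8 genes, 51 others of the pathway were listed in 7 groups, of which 36 and 32 passed the filter in the respective cohorts. None was called in either strain by limma, DESeq2 or edgeR, where limma called 0.0542% of genes tested in Dp3Tyb (0.00677% as lower), DESeq2 0.23% and edgeR 0.061%, and in Ts1Rhr 0.0269%, 0.168% and 0.0269%. At an unadjusted p below 0.05 limma gave 1 gene in Dp3Tyb, against 2.8% of all genes tested, and 4 in Ts1Rhr, against 5.52%. The log2 fold change was above 0 for 27 and below 0 for 9 of them in Dp3Tyb hearts, and above 0 for 20 and below 0 for 12 in Ts1Rhr hearts.

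The enzymes that make and recycle tetrahydrobiopterin, the cofactor of Th, had a median log2 fold change of 0.10 in Dp3Tyb and 0.13 in Ts1Rhr hearts (6 tested in each). The 2 most abundant of them were Qdpr, which recycles the cofactor, at 0.10 ± 0.24 and 0.12 ± 0.17, and Spr, which completes its synthesis, at 0.05 ± 0.22 and 0.26 ± 0.19. Of the precursor supply list, the subunits of an amino acid carrier, Slc7a5 and Slc3a2, had log2 fold changes of 0.02 ± 0.16 and 0.14 ± 0.11 in Dp3Tyb and of 0.24 ± 0.11 and 0.11 ± 0.09 in Ts1Rhr hearts. All of these limma adjusted p-values were at least 0.79.

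Hdc, which makes histamine, a monoamine that VMAT2 also carries, was the only other synthesis enzyme tested. Its mean was 47.9 ± 7.13 in WT and 64.5 ± 13.46 in Dp3Tyb hearts (log2 fold change 0.41 ± 0.17, limma adjusted p = 1.0), and 41.0 ± 12.1 and 63.9 ± 5.80 in the Ts1Rhr cohort (0.68 ± 0.21, adjusted p = 0.795). It was the 1 listed pathway gene among the 32 tested in Ts1Rhr with higher values and no overlap, where 0.619% of all genes tested were of this kind, and among the 36 that passed the filter in Dp3Tyb there was none, against 0.501%. Tph1, for serotonin synthesis, stayed at or below 6.47 and was at 0 in 9 of 20 libraries.

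Among the other monoamine transporters, the low-affinity carrier Slc29a4 had log2 fold changes of 0.21 ± 0.27 in Dp3Tyb and 0.36 ± 0.24 in Ts1Rhr. Slc18a1, the vesicular transporter of chromaffin cells (VMAT1), was under the filter in both cohorts and is named after its values were seen. Its mean was 2.75 ± 1.91 in WT and 7.59 ± 2.56 in Dp3Tyb hearts without overlap, and 5.68 ± 4.93 and 5.44 ± 2.95 in the Ts1Rhr cohort with overlap. The gap in the Dp3Tyb cohort was narrow, from 4.64 in WT to 5.09 in Dp3Tyb hearts, and WT hearts of the Ts1Rhr cohort reached 14.3. Of all genes that passed the filter in the Dp3Tyb cohort, 0.501% were higher without overlap. The aldehyde-clearing enzymes downstream of the monoamine oxidases were abundant, Akr1a1 with means between 3227 and 3724 in the 4 groups and Akr1b3 between 961 and 1067, and differed by at most 0.19 on the log2 scale in either strain.

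On the receiving side, the most abundant receptors were Adra1b, at 0.18 ± 0.16 in Dp3Tyb and 0.19 ± 0.12 in Ts1Rhr hearts, and the cardiac Adrb1, at -0.22 ± 0.12 and -0.04 ± 0.13. The most abundant of the transcription factors that specify noradrenergic neurons were Hand2, which heart tissue also expresses, at -0.03 ± 0.25 and -0.03 ± 0.20, and Gata2, at -0.22 ± 0.10 and -0.07 ± 0.10. All of these had limma adjusted p-values of at least 0.79.

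Whole hearts can carry autonomic ganglia at their base and adjoining lung or foregut, so markers of these tissues were followed beside the 8 genes. The summed level of 15 ganglion neuron markers, led by Gap43 and Tubb3, lay between 496 and 1077 in WT and between 716 and 1373 in Dp3Tyb hearts, and 12 of 14 tested had a log2 fold change above 0 (median 0.53), with Gap43 at 0.11 ± 0.11 and Tubb3 at 0.64 ± 0.24. In the Ts1Rhr cohort the sums were 754 to 1150 in WT and 607 to 1299 in Ts1Rhr hearts, with 4 of 14 above 0 (median -0.14), Gap43 at 0.08 ± 0.09 and Tubb3 at 0.58 ± 0.27. The 11 lung and foregut markers, led by Cdh1 and Epcam, summed to between 18.3 and 669 in WT and between 125 and 869 in Dp3Tyb hearts (9 of 9 tested above 0, median log2 fold change 1.93, Cdh1 1.86 ± 1.21, Epcam 1.21 ± 1.03). They summed to between 257 and 725 in WT and between 25.8 and 586 in Ts1Rhr hearts (10 of 10 below 0, median -1.70, Cdh1 -2.38 ± 1.35, Epcam -1.63 ± 0.87). Both sets of sums overlapped between mutant and WT hearts in each cohort, and the part of adjoining tissue in the Ddc values was not tested.

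No gene of the 9 marker lists was called in either strain by limma, DESeq2 or edgeR, with 5 of 59 tested at an unadjusted limma p below 0.05 in Dp3Tyb and 4 of 63 in Ts1Rhr, against 2.8% and 5.52% of all genes tested, of which limma called 0.0542% and 0.0269%. Lower values without overlap were seen for 2 of the 59 in Dp3Tyb, Kit and Gp1bb, and for none in Ts1Rhr, against 0.474% and 0.498% of all genes tested. Monoamine-storing blood cells also use VMAT2. Of the 6 genes of the mast cell list, Fcer1a was at 0 in 19 of 20 libraries, and Ms4a2 and Tpsb2 reached at most 2.92 and 4.85. The proteases Cpa3 and Mcpt4 had reads in every library, at 1.55 to 61.7 and 1.565 to 16.2. Cpa3 had log2 fold changes of 1.15 ± 0.73 in Dp3Tyb and 0.10 ± 0.50 in Ts1Rhr, and Mcpt4, under the filter in the Dp3Tyb cohort, had 0.62 ± 0.37 in Ts1Rhr. Kit, shared with other progenitors, was in Dp3Tyb hearts at 467 ± 20.5 against 540.2 ± 26.0 in WT, and had a log2 fold change of -0.16 ± 0.11 with overlap in Ts1Rhr. Of the 7 megakaryocyte and platelet markers, Gp1bb, named after its values were seen, was in Dp3Tyb hearts at 12.9 ± 2.46 against 20.1 ± 3.48 in WT and had a log2 fold change of 0.11 ± 0.30 with overlap in Ts1Rhr, while the list's median was -0.03, with Itga2b at -0.05 ± 0.37 and Gp1ba at -0.10 ± 0.32. In Ts1Rhr the list's median was 0.09, with Itga2b at 0.09 ± 0.19 and Gp1ba at -0.46 ± 0.35. The part of these cells in the lower Slc18a2 was not tested.

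The 9 cardiomyocyte markers had a median log2 fold change of -0.10 in Dp3Tyb and -0.02 in Ts1Rhr hearts, with Myh7 at -0.18 ± 0.17 and -0.02 ± 0.12 and Myh6 at 0.03 ± 0.14 and 0.05 ± 0.13. The 8 pacemaker markers were above 0 in 8 of 8 and 3 of 8 (medians 0.19 and -0.12), with Tbx18 at 0.07 ± 0.09 and 0.01 ± 0.10 and Smoc2 at 0.22 ± 0.19 and 0.02 ± 0.18. Schwann and neural crest markers had medians of 0.40 (6 tested) and -0.02 (7 tested), with Erbb3 at 0.17 ± 0.15 and 0.24 ± 0.10. Of the 7 chromaffin and neuroendocrine vesicle markers, 2 were tested in Dp3Tyb and 3 in Ts1Rhr, with medians of 0.88 and -0.22. Chgb was at 1.09 ± 0.42 and -0.15 ± 0.43 and Syp at 0.67 ± 0.34 and -0.22 ± 0.34. Under the filter, Scg2, Scg3, Npy and Cartpt had lower means in Dp3Tyb than in WT hearts, and Chga a higher one. In the Ts1Rhr cohort Chga, Npy and Cartpt, under the filter, had higher means than in WT hearts, and Scg2 a lower one. Of the liver list only Afp, at 0.32 ± 0.72 and -0.16 ± 0.83, and Ahsg, at -0.82 ± 0.27 and -0.73 ± 0.43, were tested.

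The 8 genes were then set against the ganglion neuron and the lung and foregut lists heart by heart, with the mean of each group taken off, in 16 relations over 20 hearts with permutations within groups and Benjamini-Hochberg adjustment over the 16. Dbh followed the ganglion score most closely, with r = 0.81 (permutation adjusted p = 0.00064) and rho = 0.85 (permutation adjusted p = 0.00048). Within the cohorts its r was 0.87 and 0.76, and without the 2 hearts farthest from the median score it was 0.74. Maoa, which noradrenergic neurons also use, followed it with r = 0.73 (adjusted p = 0.00453) and rho = 0.72 (adjusted p = 0.00565), at 0.53 and 0.89 within the cohorts and 0.73 without the 2 farthest hearts. Th had r = 0.67 (adjusted p = 0.0177) and rho = 0.70 (adjusted p = 0.0147), at 0.49 and 0.90 within the cohorts and 0.66 without the 2 farthest hearts.

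Ddc and Slc18a2 did not pass the same test. Ddc had r = -0.20 (adjusted p = 0.539) and rho = -0.20 (adjusted p = 0.534) with the ganglion score, and its r was -0.62 within the Dp3Tyb cohort but 0.12 within the other. Slc18a2 had r = -0.12 (adjusted p = 0.747) and rho = -0.18 (adjusted p = 0.534), with -0.42 and 0.31 in the cohorts. For Pnmt, Slc6a2 and Maob r was -0.17, 0.28 and 0.02, with adjusted p of at least 0.34.

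The lung and foregut score gave a similar order, with r = 0.73 for Dbh (adjusted p = 0.00453), 0.69 for Th (adjusted p = 0.0223) and 0.64 for Maoa (adjusted p = 0.00956), against -0.25 for Ddc and -0.30 for Slc18a2 (both adjusted p = 0.496). The values of rho were 0.76, 0.70, 0.66, -0.25 and -0.25, with adjusted p of 0.00232, 0.0202, 0.00864, 0.427 and 0.427. Both scores ran together over the hearts, with r = 0.93 and rho = 0.93 (permutation p = 1e-05 for each, the smallest that 100000 permutations can give), so the relations of Th, Dbh and Maoa with neurons and with adjoining epithelium cannot be told apart here. The part of these markers in the Th and Dbh values of each group was not tested.

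**Figure D4:**
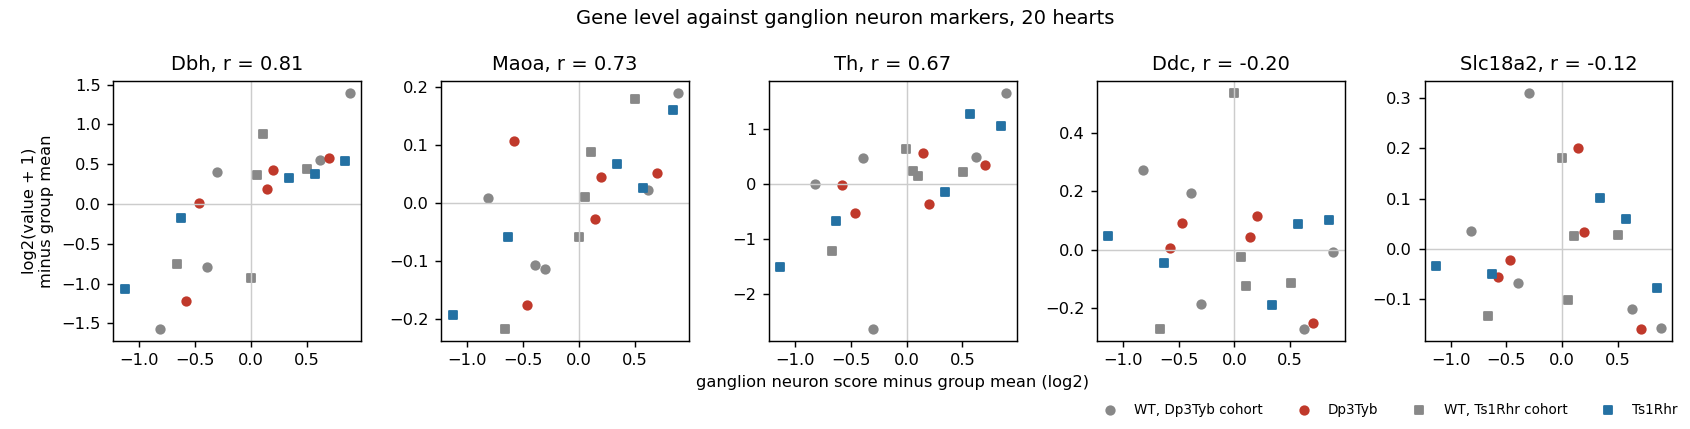
Log2(value + 1) of 5 genes against the mean log2 level of the ganglion neuron markers, both with the group mean taken off, for 20 hearts (circles, Dp3Tyb cohort; squares, Ts1Rhr cohort; grey, WT). Dbh, Maoa and Th rise with the score (r of 0.81, 0.73 and 0.67), whereas Ddc and Slc18a2 do not follow it (r of -0.20 and -0.12).

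The genes whose heart-to-heart pattern was most like each of the 6 better measured members were ranked by Pearson's r over the 20 hearts with the group means taken off, among 15348 genes, as a description over hearts that share libraries and depth. For Ddc they were Ets2 (r = 0.85), E330017L17Rik, Aldoc, Smpdl3a and Sox7 (r = 0.81 for the last). Ets2, a transcription factor gene, lies between Cbr1 and Fam3b on chromosome 16 and is therefore carried by both duplications, though the step between groups had been removed here. For Slc18a2 they were Zbtb8b (r = 0.82), Plbd1, Clic5, Mal and Samsn1 (r = 0.80).

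For Dbh the list held neuronal genes, Elavl3 (r = 0.89) and the neurofilament gene Nefm (r = 0.84), both of which are in the ganglion list, beside Ptger3, Tbx3os1 and Phf21b. For Th it held Unc79 (r = 0.92), Smoc2 (r = 0.91, on the pacemaker list), Lrfn2, the secretory granule gene Scg3 (r = 0.89, on the vesicle list) and Eps8l2. For Maoa it held Taf13 (r = 0.85), Syt16, the neuronal RNA-binding protein gene Elavl2 (r = 0.83), Opcml and Dmrt2, and for Maob Stxbp3 (r = 0.90), Pnrc1, Cep15 and Gm43437. No gene was on the list of more than 1 member. Among the members themselves r was highest between Th and Maoa (0.65), and it was 0.28 between Ddc and Slc18a2. Th was under the filter in both cohorts. Its r values include WT replicate 5 of the Dp3Tyb cohort, with 0 Th reads and the Th value farthest from its group mean (-2.63 on the log2 scale). They were not recomputed without that heart.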

How the data were processed

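Hearts were snap frozen, RNA was extracted with RNeasy kits, and KAPA mRNA HyperPrep libraries were read on Illumina HiSeq machines, per the labels. The submitters' processing notes name Trimmomatic (version 0.36), STAR (version 2.5.2a), RSEM (version 1.2.31), DESeq2, DESeq and GRCm38; the annotation release and the use of strand are not given in the sources used here. The authors deposited 1 table of normalised values, a signal of gene reads divided by 1 size factor per library. Dividing by the value of 1 read recovered whole reads for 100% of values (tolerance 0.001) in every library, and the reciprocals of these divisors match size factors computed by the median-of-ratios method to 3.55e-15. GENCODE vM39 gave symbols and transcript lengths for 44565 of 48795 identifiers, and RefSeq tables gave positions and promoters.

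Groups followed the genotype labels, and WT hearts were tied to a strain by the initial in their label. Replicate numbers follow the order of the libraries. The study states that embryos are the replicates. Each strain was tested against its littermates in R 4.3.3 with limma (version 3.58.1), fitted to log2(value + 1) with a trended robust prior, 2-sided, Benjamini-Hochberg adjustment over all genes tested and a threshold of 0.05, for genes that reached 10 in 5 or more libraries of a cohort. A log2 fold change on this scale understates the change of low genes. Members under the filter were given an exact 2-sided permutation test over 252 splits. DESeq2 (version 1.42.0) and edgeR (version 4.0.16) on the recovered reads, pseudocounts of 0.1 and 5, no filter, and leaving out libraries were alternatives; the exact permutation test of members that passed the filter in Ts1Rhr, also with single hearts left out, and levels per kilobase of coding sequence were added after seeing the data. Relations with marker lists used 100000 permutations. Reads carry no molecular identifiers, so limits drawn from 0 reads (3 reads) cover counting error only. Scripts were tested on simulated data.

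The members and lists were chosen with earlier results of these data known. All 8 members are named. Of each pathway list the genes called in either strain, or else the 2 with the highest mean over 20 libraries, are named, likewise the 2 highest of each marker list, and for each member that reached 10 in 5 or more of 20 libraries the 5 most similar genes. Gp1bb, Fcer1a, Ms4a2, Tpsb2, Mcpt4, Slc18a1, Chga, Scg2, Npy and Cartpt were added after their values were seen. Akr1b3 was matched through its RefSeq synonym Akr1b1. RefSeq promoters for Pnmt, Slc6a2 and Maob were not used here. Of the genes these rules name, 3 are not reported here.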

Additional observations from a re-analysis of the deposited data

Results flagged for a closer look

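Over 32 sets of 5 hearts (8 genes in 4 groups), 2 single values stood apart from the rest of their group by more than Dixon's limit of 0.71 for the gap divided by the range, which chance alone exceeds in about 1 of 20 such sets. Ddc was 1174 in WT replicate 5 of the Ts1Rhr cohort, where the other 4 WT hearts lay between 669 and 794 (gap over range 0.753). Maob was 185 in WT replicate 5 of the Dp3Tyb cohort, the shallowest library, where the others lay between 123 and 140.3 (gap over range 0.72). None of the 8 genes had all hearts of one strain above and all hearts of the other below their WT means.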

How the results depend on the processing

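In Ts1Rhr, Ddc and Slc18a2 stayed below WT under all 16 alternatives, with log2 fold changes of -0.58 to -0.32 and -0.25 to -0.09. The Ddc groups did not overlap there, so leaving out single hearts could not turn its sign. In Dp3Tyb the 2 genes lay between -0.56 and -0.42 and between -0.51 and -0.38. Nothing is read from their sign in Dp3Tyb, because these values chose both genes and their groups did not overlap. No member that entered the fit across all genes was called in Ts1Rhr, and no listed pathway gene in either strain, under any of the 16. The number of genes called in Dp3Tyb was 8, and it was 4 with no filter, 34 with DESeq2, 30 without the libraries over 10% mitochondrial reads, and 2 to 13 with single libraries left out. In Ts1Rhr it was 4, and it was 25 with DESeq2, 0 without the libraries over 10% mitochondrial reads, which left 2 WT and 3 Ts1Rhr hearts, and 1 to 6 with single libraries left out. The causes were not tested. The sign in Ts1Rhr turned for Dbh with single libraries left out (-0.17 to 0.33) and for Maoa with single libraries left out (-0.054 to 0.048) and in edgeR (0.0014). In Dp3Tyb the sign depended on the setting for Pnmt (-0.48 to 0.51), Slc6a2 (-0.52 to 0.48) and Maob (-0.04 to 0.11), and Dbh fell from 0.56 to 0.17 without WT replicate 4. In Ts1Rhr, Pnmt turned to -0.0046 without the libraries over 10% mitochondrial reads. Without WT replicate 5 of the Ts1Rhr cohort, the exact permutation test gave p = 0.0317 for Pnmt and p = 0.00794 for Slc6a2. The exact test of Ddc gave between 0.00794 and 0.0159 with single hearts left out, the smallest values that 126 splits allow being 0.00794, and that of Slc18a2 between 0.0397 and 0.159. No paired analysis was run, because the labels give no replicate numbers and the numbers used here only follow the order of the libraries. Th, Pnmt and Slc6a2 rested on few reads, at most 23, 15 and 16 in any library.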
